A study of Homo sapiens with 2 samples.

Results

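The WDR74 locus holds the tallest peak of one of the 2 peak lists deposited for SNRPA1, and it is described here interval by interval. Its members were selected by position and gene: the entry assigned to WDR74 in that list, and all intervals of the other list on the minus strand of chromosome 11 within a 400 nt window around that entry. This gave 1 height-list peak and 21 distinct CLIPper intervals, 22 of 9024 distinct intervals in both lists. The locus was chosen because its measured height and reads are large, so those values are a description with no test.

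SNRPA1 RNA contacts were mapped in MDA-231-LM2 cells, human breast cancer cells derived from the MDA-MB-231 line for their capacity to colonise the lung, by irCLIP. In this method RNA is crosslinked to protein by ultraviolet light, recovered with an antibody to the protein (here to endogenous SNRPA1), ligated to a linker, copied to cDNA, circularised and sequenced. The 2 biological replicates form 1 group with no perturbation. The longer list was made with the peak caller CLIPper, per its name, and gives each interval a number of reads and a p-value. The shorter list, called the height list below, is named as pooled and gives each peak's height, the number of tags stacked at it. Neither list keeps the replicates apart and no control library was analysed here, so no spread between replicates could be computed and contacts could not be set against background. Depth per library is unknown. Peak lists hold no expression levels, so the cell line could not be checked against its marker genes. Intervals in brackets are at the 95% level and cover counting error only.

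SNRPA1 is a core component of U2 snRNP, the RNA-protein particle of the spliceosome that finds the branch site of each intron. It binds U2 snRNA as a heterodimer with SNRPB2 on stem-loop IV, the stem-loop at the 3′ end of the RNA. The 5′ part of U2 snRNA pairs with the branch site and with U6 snRNA, and the ring of Sm proteins sits between the 5′ and the 3′ stem-loops. WDR74 encodes a WD40-repeat protein that acts in maturation of the large ribosomal subunit. RNU2-2 is a U2 snRNA gene with a sequence close to that of the RNU2-1 repeats, and the genome holds many further U2 copies, so the copy from which a read came is uncertain.

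WDR74 and RNU2-2 share an end in the gene table of RefSeq (GRCh38.p14). There WDR74 is 8905 nt long and RNU2-2 (Entrez 26855) is 191 nt long, and the end at which WDR74 begins differs from an end of RNU2-2 by 0 nt. The table gives no strand for RNU2-2. RNU2-2 was the single gene of that table contained in WDR74. The long noncoding RNA gene STX5-DT overlaps the other end of WDR74. RNU2-2 lies upstream of both WDR74 start sites that the RefSeq promoter table lists (2 of 2), so it sits in the part of the gene's extent that precedes them. The peaks are in hg19, a different build, so the table was used for names, lengths and neighbours, and no hg19 position of RNU2-2 was read from it. The U2 snRNA sequence and an hg19 genome were not used here.

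The CLIPper intervals formed 1 unbroken region of 178 nt (hg19 chromosome 11, 62609104 to 62609281, minus strand). It equals 2.0% of the length of WDR74. The list gave 19 consecutive intervals under one Ensembl identifier, ENSG00000133316, with a gap of 0 nt at each of the 18 boundaries. Each was narrow, 5 to 17 nt wide with a median of 8 nt, against a median of 33 nt over the whole list. A second identifier, ENSG00000222328, carried 8 intervals. The files pair neither identifier with a symbol. The first shares its place with the WDR74 peak of the height list, and the second was given no name here.

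No other part of WDR74 carried a CLIPper interval. The whole list held 19 entries under the first identifier, all in this region, and 0 outside it. Within 5000 nt of the region there was no further entry of either list on either strand (0 in all 4 cases). The nearest minus-strand interval on the 5′ side was 11.9 kb away with 3 reads, and the nearest on the 3′ side was 46.7 kb away with 7 reads. The region was therefore isolated, with edges of 229 and 341 reads next to stretches with no listed interval. An absent interval means only that none was listed, and reads below the caller's threshold are not in the list. The intervals here are listed under gene identifiers. Whether stretches outside annotated genes were searched is not known, so the edges may also depend on the annotation, which was not tested.

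From 5′ to 3′ the reads per interval rose slowly, reached a plateau, climbed to a pair of maxima and fell off. Intervals were 5 to 17 nt wide. At the 2 places where bounds differed, described below, reads changed little with width, and beyond these the dependence is not known. The same profile is given per nt further on as a second scale, where several of its steps turn. Distances below are counted in nt from the 5′ edge of the region (62609281), along the transcribed strand. The first interval, at 1 to 5 nt, had 229 reads (200 to 261). The next, at 6 to 13 nt and 14 to 23 nt, had 330 and 474 reads. A small maximum of 617 reads (569 to 668) followed at 24 to 32 nt. The 5′ edge thus had the fewest reads of the whole profile, 9.2% of its maximum.

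A shallow plateau followed the small maximum. Reads were 530 at 33 to 37 nt, 517 at 38 to 44 nt and 530 at 45 to 52 nt. The lowest of these lay below the small maximum by a ratio of 1.19 (617 over 517, 1.06 to 1.34). The steps within the plateau were no larger than counting error, with ratios of next over previous of 0.975 (0.862 to 1.1) and 1.02 (0.906 to 1.16). Reads then climbed to 596 at 53 to 60 nt, 809 at 61 to 72 nt, 1171 at 73 to 89 nt and 1305 at 90 to 97 nt. Past the plateau every interval up to the first of the tall maxima held more reads than the one before it.

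The tallest part of the profile lay between 98 and 137 nt. Reads rose to 2434 (2338 to 2533) at 98 to 114 nt, fell to 1876 (1792 to 1963) at 115 to 120 nt and reached the maximum of 2486 (2389 to 2586) at 121 to 127 nt (62609155 to 62609161). The fourth interval of this part, at 128 to 137 nt, had 2208 reads. The pair of maxima did not differ beyond counting error, with a ratio of 1.02 (0.966 to 1.08), so which of them is higher is not settled. In reads per interval both exceeded the dip, by ratios of 1.30 (1.22 to 1.38) and 1.32 (1.25 to 1.41). Per nt the first of them, in an interval of 17 nt, lay below the dip, with 143 reads per nt against 313 and 355 in the intervals of 6 and 7 nt that follow. The first maximum and the dip are thus present in reads per interval and absent per nt. Division by width raises narrow intervals where reads do not scale with width, so the per-nt values do not settle this.

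The 3′ side fell in 2 drops with a shoulder between. Reads dropped from 2208 to 1030 at 138 to 143 nt and recovered to 1247 (1179 to 1318) at 144 to 158 nt. They then dropped to 567 at 159 to 170 nt and to 341 (306 to 379) at the 3′ edge, 171 to 178 nt. The shoulder stood above the interval before it by a ratio of 1.21 (1.11 to 1.32) and reached 50.2% of the maximum. In reads per interval the profile had 4 local maxima, at 24 to 32, 98 to 114, 121 to 127 and 144 to 158 nt, and per nt it had 5. They share 1, the interval at 121 to 127 nt.

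**Figure D1:**
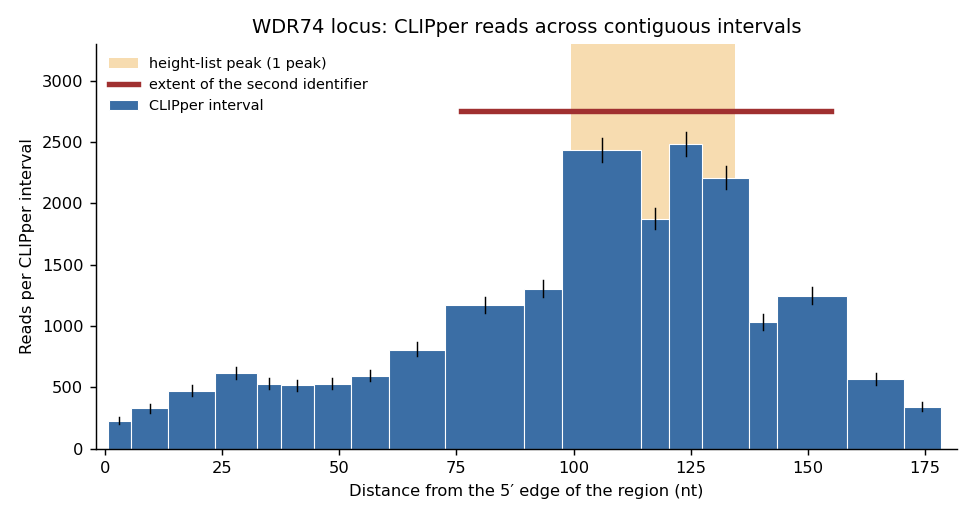
Reads of the 19 consecutive CLIPper intervals of the WDR74 locus (bars, drawn at their true width) against distance in nt from the 5′ edge, with black lines for the 95% Poisson interval of each number of reads, the height-list peak shaded and the extent of the second identifier as a red line. Reads climb from 229 at the 5′ edge to 2486 at 121 to 127 nt, dip to 1876 between the tallest pair of bars, and fall to 341 at the 3′ edge.

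Of the 18 steps between neighbouring intervals, 11 went up and 7 went down in the 5′ to 3′ direction. The steepest rise was from 1305 to 2434 reads, a ratio of 1.86 (1.74 to 2.00), at the 5′ side of the tall part, and it turned to a fall per nt (163 to 143). The steepest falls lay on its 3′ side. One was from 1247 to 567 reads, a ratio of 2.20 (1.99 to 2.43), and the other from 2208 to 1030 reads, a ratio of 2.14 (1.99 to 2.31). Those 2 falls did not differ from each other beyond counting error, as their intervals overlap nearly throughout. The maximum exceeded the 5′ edge by 10.9-fold (9.48 to 12.5) and the 3′ edge by 7.29-fold (6.51 to 8.19). Per nt 7 of the 18 steps turned direction and 11 kept it. The highest rises per nt were from 68.9 to 163 (a ratio of 2.37) between 73 to 89 nt and 90 to 97 nt, and from 143 to 313 (2.18) between 98 to 114 nt and 115 to 120 nt. Beyond the maximum of 355 reads per nt the values fell at each step, through 221, 172, 83.1 and 47.2 to 42.6 at the 3′ edge, with no shoulder. What both scales share is the place of the maximum, 121 to 127 nt, with low values at both edges. These ratios take the reads of neighbouring intervals as separate, and a read that spans a boundary may be in both.

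**Figure D2:**
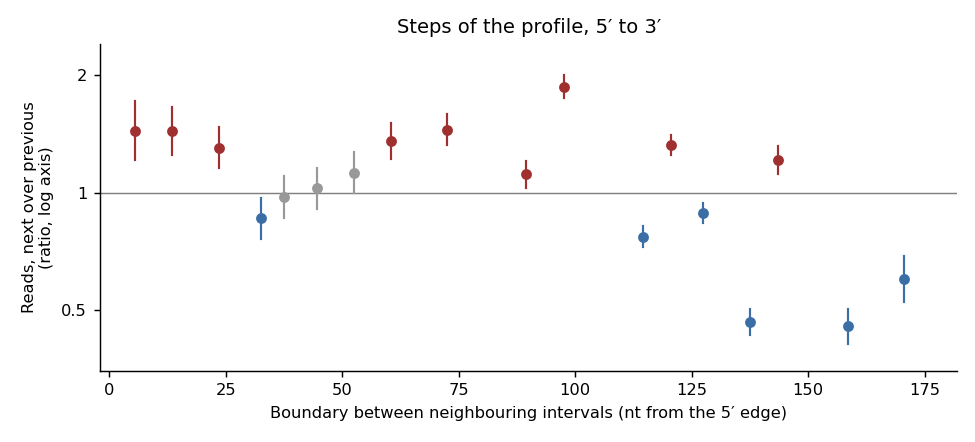
Ratio of reads in each interval to those in the one before it (dots, log axis) at the 18 boundaries, against distance in nt from the 5′ edge, with vertical lines for the 95% interval from the exact binomial (red above 1, blue below 1, grey where it includes 1). The tallest dot is the rise of 1.86 into the tall part, and the lowest are the falls from 2208 to 1030 and from 1247 to 567 reads; the rise of 1.86 turns to a fall per nt.

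The number of reads did not scale with the width of an interval where this could be compared. At 2 places the identifiers gave the same site different bounds. The interval 62609124 to 62609138 had 1247 reads, and its version shorter by 3 nt at the 3′ end had 1245, so 3 nt changed the number by 2 reads where the mean was 83.1 reads per nt. The interval 62609193 to 62609209 had 1171 reads, and its version shorter by 3 nt at the 5′ end had 1153, a difference of 18 reads where the mean was 68.9 per nt. Summing the 19 values may therefore count reads repeatedly, and no sum over the region is given as a number of reads. The sources used here do not give how CLIPper assigned reads to intervals.

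The second identifier covered the inner part of the region, 80 nt from 76 to 155 nt (62609127 to 62609206). Of its 8 intervals, 6 had the same bounds and the same reads as those of the first identifier, and 2 differed as described. Its reads ran from 1030 to 2486, so all of the tall part lay under both identifiers, and the shoulder did except for its last 3 nt. The first identifier alone held 9 intervals on the 5′ side and 2 on the 3′ side. Of 27 entries in the locus, 25 had p listed at 0. The others were 1.08e-222 for the interval of 1153 reads under the second identifier and 6.46e-306 for the 5′ edge. The same site at 1171 reads under the first identifier had p listed at 0, so p differed between identifiers where reads hardly did.

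The height-list peak fell on the tall part and left the flanks uncovered. WDR74 had 1 peak there, 1255 tags high (1187 to 1326), 35 nt wide, at 62609148 to 62609182, which is 100 to 134 nt from the 5′ edge. It spanned 19.7% of the region. It overlapped 4 of the 19 intervals, those with 2434, 1876, 2486 and 2208 reads, and the other 15 had between 229 and 1305 reads with a median of 567. The weakest interval under the peak exceeded the strongest outside it by a ratio of 1.44 (1.34 to 1.54). Per nt the intervals under the peak had 143 to 355 reads, and those at 90 to 97 nt and 138 to 143 nt, outside it, had 163 and 172, so that separation is not present per nt. The name of the height list holds the term halfPH, so its bounds may have been set at a fraction of the peak's height. Lower flanks would then lie outside by construction, and the separation in reads per interval would follow from the bounds. The peak's centre, 117 nt, lay between the pair of maxima of the reads per interval, and 7 nt on the 5′ side of the centre of the strongest interval. The 2 lists thus placed the maximum in the same stretch, where CLIPper gave 2 summits in reads per interval and 1 per nt, and the height list gave 1. The lists stem from 1 pair of libraries, and this is no measure of replication.

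Neither the small 5′ maximum nor the 3′ shoulder had a height-list peak. The 5′ maximum had 617 reads and the shoulder 1247, both far above the median of 5 reads over the CLIPper list. In the CLIPper list all 21 distinct intervals of the locus had 100 or more reads, where 3.08% of the 7651 distinct intervals did. In the whole list 21 distinct intervals (0.274%) had 1000 or more reads, and 10 of them lay in this locus. Under the first identifier alone the locus had 8. These intervals abut or overlap and may share reads. In the height list the WDR74 peak was 1 of 12 of 100 or more tags (0.874% of 1373). These counts use the values for which the locus was chosen and are given as a description.

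Reads per tag at the locus, taken from the strongest overlapping interval, lay within the usual range. The strongest interval under the peak gave 1.98 reads per tag (1.85 to 2.12). Over the 1335 height-list peaks that share 1 nt or more with a same-strand CLIPper interval, the median was 1.67 and the quartiles were 1.25 and 2.25. Of these, 62.7% had a lower value than WDR74. Over the 12 peaks of 100 or more tags, the ratio ran from 1.07 to 2.86 with a median of 1.53. On this measure the locus was therefore outstanding in both numbers and unremarkable in their ratio. Summed reads of the 4 intervals under its peak gave 7.17 reads per tag. The summed ratio of the other peaks is not given here, so the ratio was not compared on that measure. The sources used here do not state if repeated reads had been removed from the CLIPper input. The name of the height list holds the term uniq and that of the CLIPper list does not, so reads and tags may be unlike counts.

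**Figure D3:**
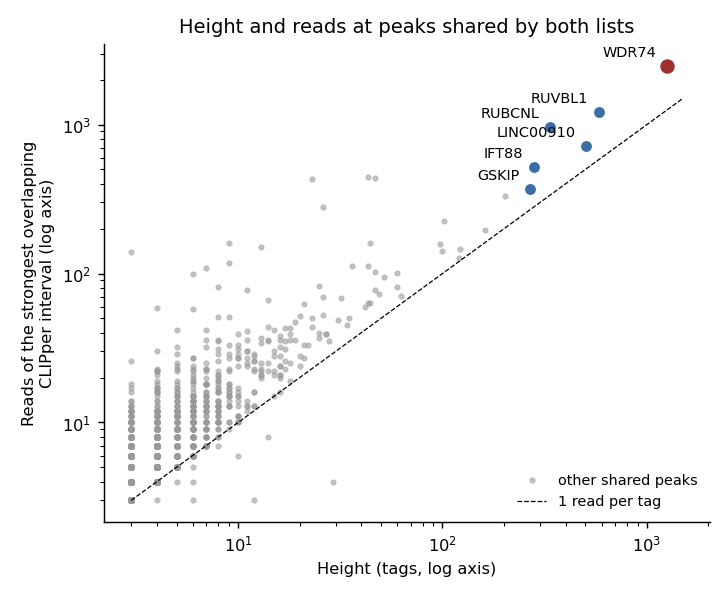
Height in tags (x, log axis) against reads of the strongest overlapping CLIPper interval (y, log axis) at the 1335 peaks present in both lists (grey), with WDR74 in red, the next 5 genes in blue and a dashed line at 1 read per tag. WDR74 is the point farthest to the upper right, at 1255 tags and 2486 reads, and lies within the band of the other points.

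The tallest peak did not have the lowest P of the height list. WDR74 had a P of 1.88e-09, and 312 of the 1373 distinct peaks had a lower one, of which 265 sat at the lowest listed value of 1e-100. The entry also carried the highest value of a field named PH0, 7.13, against 1.1 for the next highest. PH0 was listed at 0 for 82.1% of the peaks and reached 1 or more in 4. The sources used here do not define it. Height over PH0 was 176 at WDR74, the lowest among the 6 genes with the tallest peaks, where it was 459 in LINC00910 and 708 in GSKIP.

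Where SNRPA1 is known to sit on U2 snRNA, at stem-loop IV near the 3′ end, can be set beside the profile only in outline. With the region divided into 3 equal parts and each interval placed by its centre, the 5′ part held 8 intervals with 229 to 617 reads (median 524). The middle part held 5 with 809 to 2434 (median 1305), and the 3′ part held 6 with 341 to 2486 (median 1138). The strongest interval ended 51 nt before the 3′ edge and the height-list peak 44 nt before it. The maximum thus lay on the 3′ side of the region's midpoint (89.5 nt) but not at its 3′ end, where reads were down to 341.

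RNU2-2 is 13 nt longer than the region. If the region lay wholly inside an RNA of 191 nt, the height-list peak would span 100 to 134 nt of it with the 5′ ends aligned, and 113 to 147 nt with the 3′ ends aligned. The peak would then end 44 to 57 nt before the 3′ end of that RNA. The strongest interval would lie at 121 to 127 nt in the first case and at 134 to 140 nt in the second. The bounds of stem-loop IV are not in the files used here, so its overlap with the peak was not measured. In CLIP a tag covers the RNA next to a crosslink and is not centred on it, and these lists hold no crosslink positions.

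The locus held more intervals than any other CLIPper region. When intervals on 1 strand were joined across gaps of at most 50 nt, the list formed 6442 regions with a median span of 35 nt, and 84.2% of them held 1 interval. WDR74 had the most, 21, followed by 17 in RUBCNL. These numbers pool overlapping intervals of several identifiers, and with those of 1 identifier WDR74 had 19, followed by 10 in LINC00910 and 9 in RUBCNL. With all identifiers a number of 10 or more was reached by 3 regions (0.0466%). By span it ranked 7, and the 6 longer regions had at most 83 reads in any interval. By its strongest interval it ranked 2, behind a region of 3 intervals and 36 nt on chromosome 10 whose strongest interval (103124665 to 103124673, minus strand) had 2507 reads (2410 to 2607). That lead was within counting error, at a ratio of 1.01 (0.954 to 1.07). The locus thus joined a high number of reads with a width that the other strongest region lacked.

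The genes most like WDR74, by height in tags, were RUVBL1 (586), LINC00910 (505), RUBCNL (336), IFT88 (281) and GSKIP (269). WDR74 exceeded the first of them by 2.14-fold (1.94 to 2.37). This likeness is by height alone. By reads of the strongest interval, short regions on chromosomes 10 (2507 reads, 36 nt), 3 (2232 reads, 36 nt) and 6 (1379 reads, 43 nt) exceeded RUVBL1 (1217 reads). Among the genes named, LINC00910 was closest in span, with 167 nt, and in the number of intervals of 1 identifier, while RUBCNL was closest in the number over all identifiers. The maxima below are in reads per interval. LINC00910, a long noncoding RNA gene, had a main maximum of 714 reads and a smaller 5′ maximum of 446, with 95 nt between their centres, while in WDR74 the maximum and the small 5′ maximum were 96 nt apart. In RUBCNL, which encodes a regulator of autophagosome maturation, a main maximum of 962 reads followed a 5′ maximum of 458 reads by 66 nt. The main maximum exceeded the 5′ one by 4.03-fold in WDR74 (3.69 to 4.41), 2.10-fold in RUBCNL (1.88 to 2.35) and 1.60-fold in LINC00910 (1.42 to 1.81). These maxima are at least 50 nt apart by a rule set after the profiles were seen. Per nt the strongest interval was another one in LINC00910 (centred at 105 nt of its region, not 117 nt) and RUBCNL (90.5 nt, not 105 nt), and the same one in WDR74, so the distances depend on the scale. Whether the sites in the genes compared with WDR74 lie on further U2 copies was not tested.

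The remaining 3 genes had other shapes. RUVBL1, which encodes an AAA+ ATPase, had 3 intervals of 63 reads each on the 5′ side, a stretch of 42 nt without an interval, a tall part of 570, 1217 and 1200 reads, and after a second gap 1 interval of 55 reads. IFT88, a gene of intraflagellar transport, had 3 intervals in 45 nt, with 181, 517 and 326 reads. GSKIP, which encodes a GSK3-binding protein, had 3 in 55 nt, with 250, 370 and 116 reads. With the intervals of 1 identifier, unbroken coverage over more than 100 nt was seen in WDR74 alone among these 6. On that measure RUVBL1, LINC00910 and RUBCNL had gaps of up to 42, 22 and 5 nt, so RUBCNL, with a span of 147 nt, came near it.

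**Figure D4:**
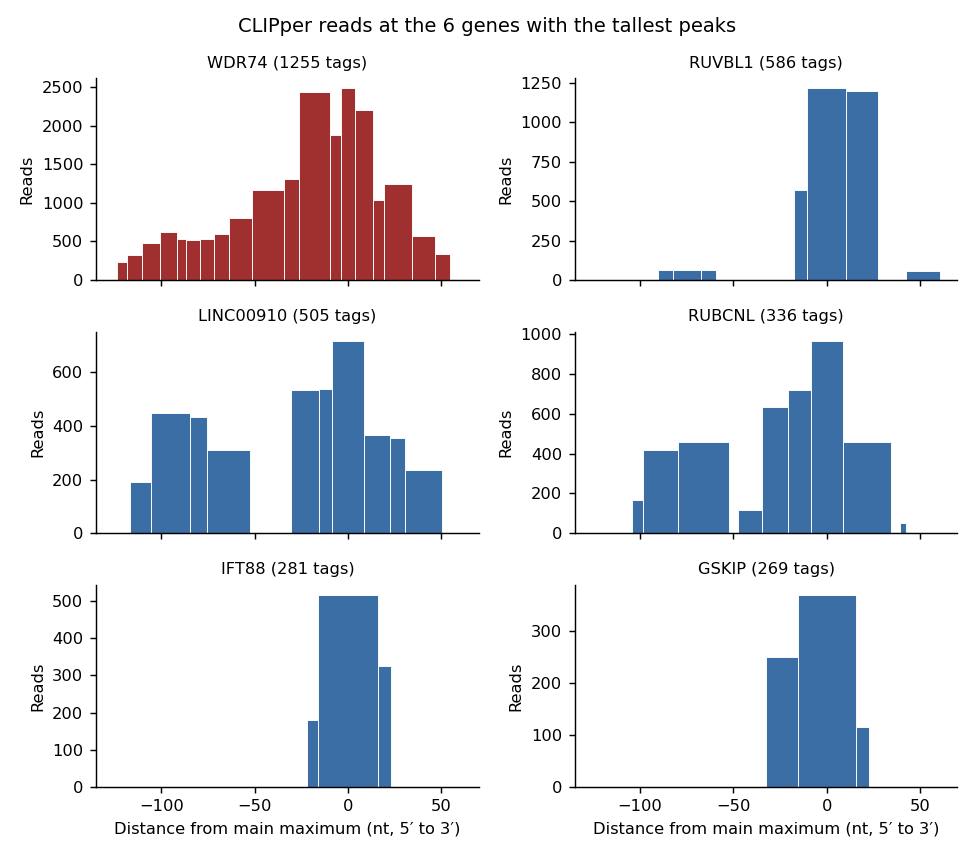
Reads per CLIPper interval (y, bars at true width, each panel with its own axis from 0) against distance in nt from the main maximum (x, 5′ to 3′) at the 6 genes with the tallest height-list peaks, with WDR74 in red. WDR74, LINC00910 and RUBCNL show a smaller rise on the 5′ side of the main maximum, and IFT88 and GSKIP show 3 intervals each.

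Genes for proteins that partner with either product of the locus had low peaks where they had any. Of 26 genes for U2 snRNP and U2-associated proteins, 3 (11.5%) had a height-list peak, where 6.02% of 20056 protein-coding genes did. They were SF3B3, a subunit of the SF3B complex, DDX42, a helicase tied to it, and U2SURP, a U2-associated protein, each with 4 tags (1.09 to 10.2). SNRPA1 and its partner SNRPB2 had 0 entries. Of 18 genes of large-subunit maturation and the nucleolus other than WDR74, 2 (11.1%) had a peak. They were MDN1, the AAA ATPase of pre-60S remodelling, with 3 tags (0.619 to 8.77), and NPM1, nucleophosmin, with 4 tags (1.09 to 10.2). All 5 of these peaks were thus at or below the list's median of 4 tags. No entry of the height list was assigned to RNU2-1 or RNU2-2 (0 each). A site on a gene inside another can carry the name of the outer gene, so this does not show that those RNAs lacked tags.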

How the data were processed

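The submitters' processing notes name build hg19, BWA 0.7 and cutadapt 1.10. The authors deposited 2 peak lists. In the first, per its file name from CLIPper, the deposited value is a p-value per interval, with reads in the interval's name. In the second, the deposited signal is the peak height in tags, with P and PH0 in the name. Settings of the callers: not given in the sources used here. Both lists are the authors' own and served only to describe and rank peaks.

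Repeated entries of an interval were counted once in counts over a list, and the profile used the identifier with most intervals (19). Intervals on 1 strand were joined across at most 50 nt. Positions are 1-based. Reads carry exact Poisson intervals and ratios exact binomial intervals (95%). The members, gene lists and comparisons were chosen with earlier results of these data known. Genes named were WDR74, RNU2-2, RNU2-1, the next 5 genes by height, genes overlapping WDR74 and members of 2 gene lists with a peak, plus the strongest CLIPper interval. Joining, overlap and maxima were tested on simulated data with known answers. With 1 group and lists that do not separate replicates, no test between samples was made. Alternatives covered p thresholds, the window, overlap, joining gaps, the identifier used and reads per nt. Values were computed with scipy 1.17.1, pandas 2.3.3 and numpy 2.4.6 in Python 3.11.15 and drawn with matplotlib 3.10.9.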

Additional observations from a re-analysis of the deposited data

How the results depend on the processing

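Of 22 alternatives to 15 results, 12 gave the same or nearly the same value. Among them were the p threshold of 1e-10, the wider window, the join gaps of 0 and 200 nt and the maximum by reads per nt. The p threshold and the wider window could not change the number of intervals. The highest p in the locus was 1.08e-222, and no further entry lay within 5000 nt. Under the second identifier alone the locus had 8 intervals in place of 21. Summed reads of all 4 overlapping intervals gave 7.17 reads per tag in place of 1.98. The share of the locus in the summed height rose from 10.5% (9.92 to 11.02) to 13.2% when only peaks with P under 1e-5 were kept, since fewer peaks remain. Per nt instead of per interval, the step from 1305 to 2434 reads turned from 1.86 to 0.878, the first tall maximum over the dip from 1.30 to 0.458 and the shoulder over the interval before it from 1.21 to 0.484. The second tall maximum over the dip moved from 1.32 to 1.14, the fall from 2208 reads from 0.466 to 0.777 and the fall from 1247 reads from 0.455 to 0.568. The number of local maxima was 4 and 5, which is counted among the 12 as nearly the same. Only 1 of these maxima was shared, so their places did not hold. The region with the next most intervals had 17 over all identifiers and 10 within 1. The per-nt values, the identifier settings and the rank by number of intervals were added after the data were seen. No paired analysis was possible because there is 1 group, and no replicate could be left out of lists that do not separate them. The unknown depth limits all values.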
